A study of Gymnopus androsaceus with 9 samples.

Results

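The 100 most abundant transcripts of Gymnopus androsaceus mycelium growing on pine needles were taken as the 100 genes with the highest median RPKM over 9 libraries, out of 29375 genes listed and 25486 with a read in at least 1 library. RPKM scales the reads of a gene to its transcript length and to the depth of the library, so levels of different genes can be set side by side on it. The median over libraries was the measure that chose these genes, so their high levels describe the choice and are not a finding. A gene that was abundant at a single harvest could not enter the set. All 100 genes passed the low-count filter used for testing, as did 20168 genes in all.

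Gymnopus androsaceus is a basidiomycete that lives in the litter layer of conifer forests, colonises fallen needles and spreads between them by dark, hair-like strands of hyphae. Like other litter saprotrophs, it feeds by secreting enzymes that break down plant cell walls and taking up the released sugars and nitrogen. In growing fungal cells a small number of genes usually supplies a large part of all messenger RNA. The deposited tables identify each gene by a JGI protein ID alone and pair no ID with a product or a sequence, so genes are named here by that ID, with no statement about what they encode. For the same reason the labelled tissue could not be checked against marker genes, and no sequences are shown.

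The mycelium had grown for 2, 5 or 10 months in sealed microcosms of sand mixed with Scots pine needles that had been sterilised by gamma radiation. All groups were started from a needle already colonised by the fungus and all received ammonium chloride after inoculation, so no group was free of added nitrogen. Each harvest was represented by 3 biological replicates. More microcosms were harvested at each time than were sequenced, no strain is named in the labels, and RNA was extracted from ground, frozen material.

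The libraries held between 21939600 and 96533143 reads unique to a single gene. In a check for libraries deposited more than once, the lowest chi-square per gene between replicates of a harvest was 79.1, and no such pair was found. In 3 libraries, which were 2-month replicate 2 and 10-month replicates 1 and 2, 6 of the most abundant genes took more than 10% of all unique reads. These libraries stand apart from the other 6. For part of the results that rest on them, values without them are also given.

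The 100 genes spanned a 15.8-fold range of median RPKM. ID 507124 stood highest at 15351 RPKM, the gene at rank 10 was ID 807519 at 4436 RPKM, and ID 834539 at rank 100 stood at 970 RPKM. The median over all genes with reads was 3.79 RPKM. The 5 highest genes had medians of 12239 RPKM or more, and the gene at rank 50 had 1682 RPKM. Just inside it were IDs 803819, 999066 and 834539 at 981, 970 and 970 RPKM, and just outside it IDs 956483, 943543 and 765155 at 969.6, 958 and 956 RPKM. The last 3 were each among the 100 highest of 3 to 6 libraries, while ID 803819 inside the limit was so in 1 library only.

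**Figure D1:**
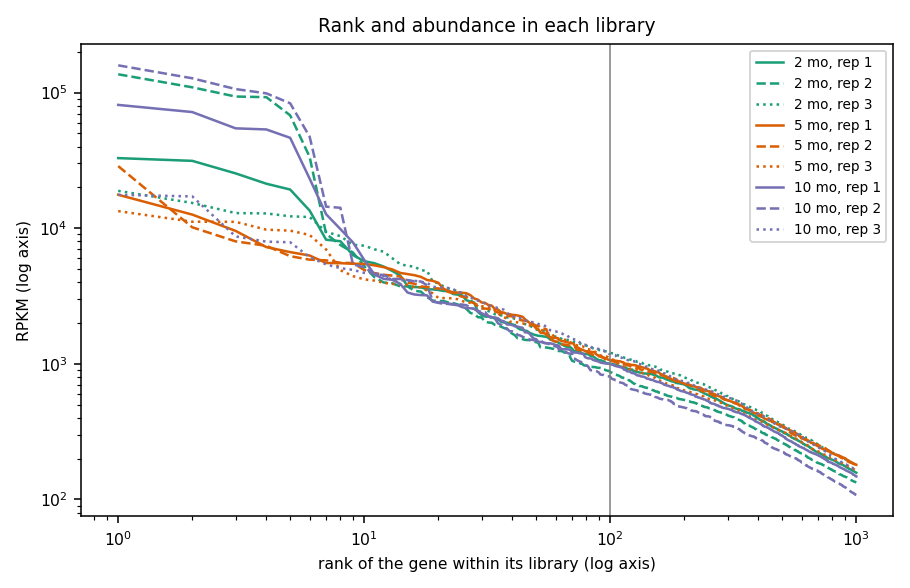
RPKM (log axis) of the 1000 highest genes of each library against their rank within that library (log axis), coloured by harvest, with the line type marking the replicate and a vertical line at rank 100. At the left end 2-month replicate 2 and 10-month replicates 1 and 2 rise to between 81123 and 158785 RPKM.

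The 100 genes held between 19.4% and 46.5% of unique reads in a library. The share was 21.8%, 36.5% and 20.1% in the 2-month libraries, which gives 26.1% ± 9.07 (SD, n = 3). At 5 months it was 19.7%, 19.4% and 19.5%, or 19.5% ± 0.151 (SD, n = 3). The 10-month libraries had 32.3%, 46.5% and 21.1%, or 33.3% ± 12.7 (SD, n = 3). All 5-month libraries lay just below those of the other harvests, by as little as the step from 19.7% to 20.1%. The 2- and 10-month libraries overlapped, and the high values were those of the 3 libraries named above. On the RPKM scale, where short transcripts weigh more, the 100 genes held 25.8% to 62.4%. The transcript pool was most concentrated in 10-month replicate 2, where 8 genes made up 50% of the summed RPKM. In 10-month replicate 1 this took 156 genes and in 2-month replicate 2 it took 40, against 376 to 523 in the other 6 libraries.

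Most of that variation came from 6 co-varying genes, IDs 507124, 838592, 838596, 838638, 960508 and 960513. They were picked out with their values known, as ID 507124 and the genes whose log2 CPM (unique reads scaled to library totals) correlated with it at over 0.95 over the 9 libraries, among the 16606 genes over 1 CPM on average. All 6 are among the 100. Together they took 6.84%, 24.9% and 3.35% of unique reads at 2 months, 1.39%, 1.47% and 2.30% at 5 months, and 17.2%, 31.9% and 1.24% at 10 months. Once these 6 genes were left out of the members and of the totals, the other 94 genes held a far more even share. It was 16.0%, 15.5% and 17.3% at 2 months, 18.5%, 18.2% and 17.6% at 5 months, and 18.3%, 21.4% and 20.1% at 10 months. All 3 libraries at 2 months lay below the 6 later ones, while the 5- and 10-month libraries overlapped. No test was made of these shares, because the genes were chosen by their level.

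**Figure D2:**
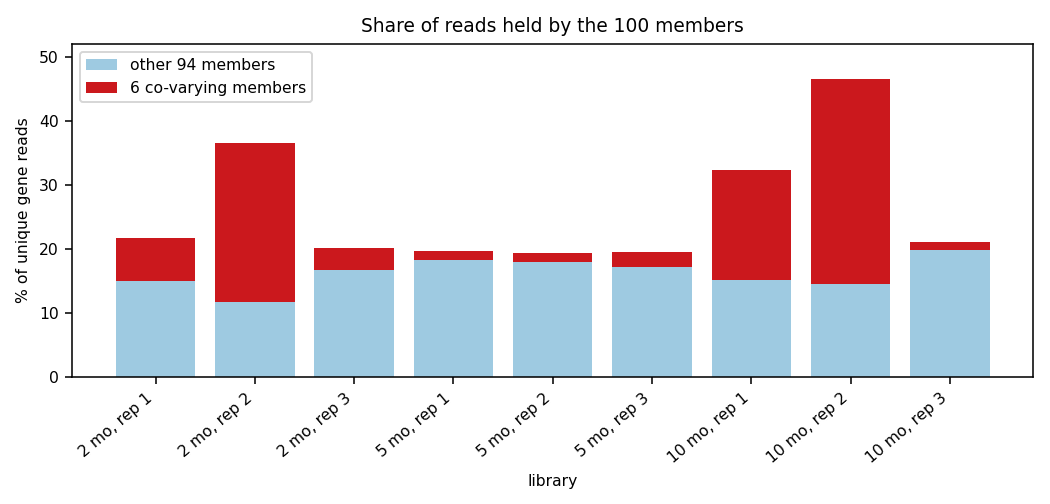
Percent of unique gene reads held by the 100 genes in each of the 9 libraries, split into the 6 co-varying genes (red, 1.24% to 31.9%) and the other 94 (blue). Bars start at 0. The red part makes the bars of 2-month replicate 2 and 10-month replicates 1 and 2 the tallest.

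Membership varied from library to library. Of the 100 genes, 41 were among the 100 highest of every library, 42 of 5 to 8 libraries, and 17 of fewer than 5. Between 67 and 87 of them were among the 100 highest of a given library. In all, 205 genes entered some library's 100 highest, of which 105 were not members and 48 of those did so in a single library. By harvest medians, 73 members ranked in the first 100 at 2 months, as did 87 at 5 and 84 at 10 months, and 57 genes ranked there at each harvest. There were 78 members that never ranked lower than 200, and 7 that fell below rank 1000 in some library. A library's highest 10 was filled from 21 genes in total, 20 of them members, with 3 present in every library's 10.

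ID 1018247 was the highest gene in 5 libraries, namely 2-month replicate 3, all 5-month libraries and 10-month replicate 3. Its RPKM was 13486, 9089 and 18864 at 2 months, 17650, 28699 and 13365 at 5 months, and 12672, 14146 and 17628 at 10 months. The harvests overlapped, and by edgeR's F test the gene gave an adjusted p of 0.351 over the 3 harvests. ID 838592 led 2-month replicates 1 and 2, and ID 960508 led 10-month replicates 1 and 2. Both of these belong to the 6 co-varying genes.

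**Figure D3:**
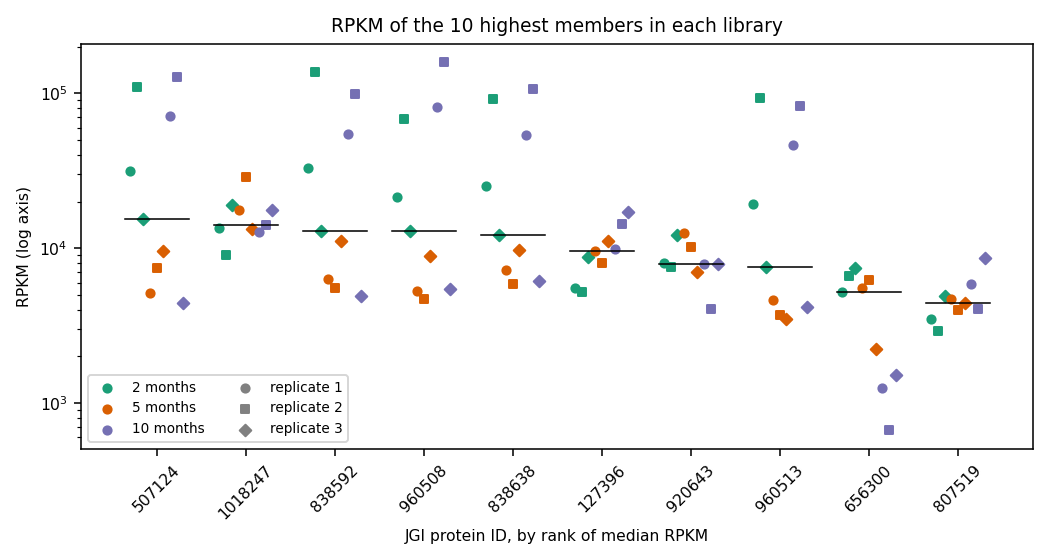
RPKM (log axis) of the 10 genes of highest median RPKM in each library, coloured by harvest, with the marker shape giving the replicate and a black line at the median. IDs 507124, 838592, 960508, 838638 and 960513 spread over more than a 10-fold range, with 2-month replicate 2 and 10-month replicates 1 and 2 on top, whereas ID 656300 has all its 10-month points at the bottom.

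The 6 co-varying genes, picked for their correlation with ID 507124, moved almost in step. ID 507124 had 31377, 109356 and 15351 RPKM at 2 months, 5159, 7416 and 9592 at 5 months, and 71843, 127490 and 4454 at 10 months. Its range on RPKM was thus 28.6-fold, with 10-month replicate 3 below every 5-month library and both other 10-month replicates far above them. In CPM scaled by TMM, 10-month replicate 3 stood at 4245, within the 5-month range of 4017 to 7631. Over the 9 libraries the RPKM ratio of ID 838592 to ID 507124 stayed between 0.750 and 1.25, and that of ID 960508 between 0.621 and 1.25. The ratio of ID 838638 ran from 0.744 to 1.41, that of ID 838596 from 0.187 to 0.391, and that of ID 960513 from 0.362 to 0.930. Ratios to the same gene therefore varied by 1.66- to 2.57-fold while the genes themselves varied by 18.1- to 34.0-fold. The members most like ID 507124 on log2 CPM were IDs 838596 and 838638, each at r = 0.99 over the 9 libraries. The next in order were IDs 838592, 960508 and 960513, at r = 0.99, 0.98 and 0.98. Within the 6 libraries that are not rich in these genes r was lower, and the order differed. There it was 0.96 for ID 838592, 0.94 for each of IDs 960508, 838638 and 838596, and 0.86 for ID 960513. With TMM scaling, the gene next in order was ID 1007789, which is no member, at r = 0.96. These values are descriptions, since the 6 genes were picked by this correlation over the same 9 libraries, so high r and narrow ratios follow from the choice. The libraries also share one scaling and fall into separate clusters.

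The 6 genes had implied transcript lengths of 162, 168, 195, 420, 732 and 907 bases, and hardly any of their reads mapped elsewhere, at most 0.000986%. All 5-month libraries lay below all 2-month libraries in each of the 6. Their pooled SD between libraries of a harvest was 1.71 to 1.93 on the log2 scale, however, so the test did not call that difference in any of them. Over the 3 harvests the adjusted p by edgeR's F test ran from 0.0420 for ID 960508 to 0.110 for ID 838592. These values depended on the setting, and over 19 alternatives each gene lay on both sides of 0.05. The adjusted p of ID 960508 ran from 0.00175 to 0.168, that of ID 507124 from 0.00702 to 0.193, and that of ID 838592 from 0.0252 to 0.261. ID 960508 was the only one of the 6 called in a pairwise comparison. In CPM scaled by TMM, a method that sets library sizes from the bulk of genes, it stood at 3344, 2930 and 5722 at 5 months and at 69982, 197246 and 4160 at 10 months. Its 10-month replicate 3 lay within the range of the 5-month libraries. The log2 fold change of 4.50 ± 1.25 (SE, edgeR, adjusted p = 0.0376) rests on 10-month replicates 1 and 2. Both are among the 3 libraries set apart by their high level of these genes, so leaving those out keeps 10-month replicate 3 alone and takes the value to 0.04 by construction. It was 3.19 (edgeR, adjusted p = 0.160) without 10-month replicate 2. Leaving out 10-month replicate 1 or any 5-month library also ended the call, with adjusted p of 0.0816 to 0.107.

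Changes between harvests were tested across all genes on unique reads, and the members' counts are read beside the share of all tested genes that was called. In whole mycelium, fewer hyphae carrying a transcript and less of it per hypha cannot be told apart. Over the 3 harvests, 48 of the 100 genes differed by edgeR's F test at an adjusted p under 0.05, where 38.4% of all tested genes did. Among the 896 genes tested of the next 900 in the ranking, the share was 42.7%. The 48 were spread evenly over the ranking, with 24 at ranks 1 to 50 and 24 at ranks 51 to 100. Of the 48, 34 had their highest mean at 10 months, 7 at 5 months and 7 at 2 months. That is 70.8% at 10 months, against 38.8% of the called genes overall and 60.3% of those in the next 900. Means stepped upward through the harvests in 25 of the 48 and downward in 4. The upward share was 52.1%, against 27.2% of the called genes overall and 43.3% of those in the next 900. For the downward step it was 8.33%, against 26.1% and 18.3%. These classes rest on the scaling and on means that include the 3 libraries rich in the co-varying genes. They were not tested against each other, and neither they nor the 48 calls are given here without those libraries.

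**Figure D4:**
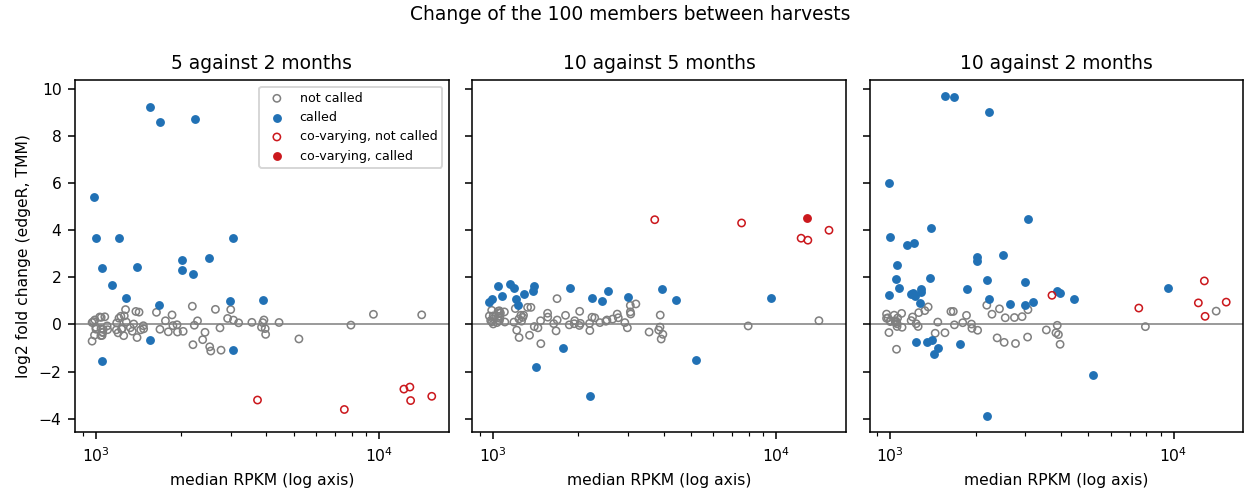
Log2 fold change (edgeR with TMM scaling) of each of the 100 genes against its median RPKM (log axis) in the 3 comparisons, with filled points called at an adjusted p under 0.05 and the 6 co-varying genes in red. Called genes lie mostly above 0 in each panel, 18 of 21, 20 of 24 and 34 of 42, but scaling to library totals turns the middle panel to 7 higher and 10 lower.

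The change from 2 to 5 months was called in 21 of the 100 genes, where 20.7% of all tested genes were called, so the number as such did not stand out. In direction, 18 were higher and 3 lower at 5 months, where 11.6% and 9.1% of all tested genes were. Among the next 900 genes 19.6% were called, 11.6% higher and 8.04% lower. The 18 rises had a median log2 fold change of 2.57. Of the 100 genes, 7 were called and more than 8-fold higher, where 1.3% of all tested genes were. By the median rule, a gene high only from 5 months on could be a member, while one high only at 2 months could not. The lean to rises and the number of large rises are thus not independent of the choice of genes. The 3 falls had log2 fold changes of -1.54 to -0.66. Over all 100 genes the median log2 fold change was -0.02, against -0.01 for all genes tested. Libraries of both harvests did not overlap in 44 of the 100, where 37.9% of all tested genes were so separated. The number of falls was unstable. It was 0 when 5-month replicate 2 was left out and 1 when 2-month replicate 2 or 3 or 5-month replicate 1 was. It was 6 when 10-month replicate 1 was left out, 9 for 10-month replicate 3, and 10 for the 3 rich libraries together. Fitting the compared harvests alone gave 8 falls, and DESeq2 gave 20 rises and 17 falls.

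A small group joined the most abundant transcripts only after 2 months. The 7 genes that rose more than 8-fold lay between 0.387 and 333 RPKM in every 2-month library and between 989 and 3446 RPKM in every 5-month library. At 10 months they held levels of 449 to 4509 RPKM. None of the 7 was called between 5 and 10 months by edgeR, with adjusted p of 0.115 to 0.976. Each was still called as higher at 10 than at 2 months. They are therefore members through their later libraries. All of them but ID 995796 are among the 7 members that fell below rank 1000 in some library, and the remaining one of those is ID 809329.

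IDs 922432, 923077 and 923897 had the largest fitted rises, and their order changed when 2-month replicate 3 was left out. The CPM of ID 922432 was 0.334, 0.210 and 2.70 at 2 months, 649, 440 and 646 at 5 months, and 424, 1305 and 679 at 10 months. All later libraries thus lay far above all early ones. The log2 fold change was 9.20 ± 0.99 (SE) at 5 against 2 months (edgeR, adjusted p = 0.000379) and 9.67 ± 1.01 (SE) at 10 against 2 months (adjusted p = 0.000121). The 2-month level rested on few reads, 20, 6 and 66, and without 2-month replicate 3 these values became 10.97 and 11.45.

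ID 923077 had 0.50, 0.524 and 2.29 CPM at 2 months, 350, 327 and 621 at 5 months, and 286, 856 and 461 at 10 months. Here too the early and the later libraries were far apart. The fitted log2 fold change at 5 against 2 months was 8.71 ± 0.76 (SE, edgeR, adjusted p = 8.3e-05), and 9.72 without 2-month replicate 3. Both of these genes have an implied length of 590 bases and share many of their reads with other genes, 39.9% for ID 922432 and 69.4% for ID 923077. Which gene a shared read came from cannot be told, so their levels are uncertain.

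ID 923897 showed the same course with only 0.000260% of its reads shared. It had 0.200, 0.454 and 5.24 CPM at 2 months, 641, 459 and 976 at 5 months, and 892, 2061 and 1475 at 10 months. In each 2-month library it was thus the lowest or next to lowest of the 100 genes by RPKM. On the log2 scale the change was 9.66 ± 1.29 (SE) at 10 against 2 months (edgeR, adjusted p = 0.000752), and 12.26 without 2-month replicate 3. In these 3 genes 2-month replicate 3 held the highest of the 2-month values.

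Over the 9 libraries 4 of the 100 genes varied by more than 100-fold, and the fourth, named after its values were seen, was ID 917745. It went from 14.6, 38.3 and 30.1 CPM at 2 months to 948, 777 and 1728 CPM at 5 months, with 882, 2949 and 1394 CPM at 10 months. Its log2 fold change at 5 against 2 months was 5.38 ± 0.58 (SE, edgeR, adjusted p = 0.000193), and 12.2% of its reads were shared. ID 550982 combined a large rise with close replicates. It had 226, 226 and 255 CPM at 2 months, 3367, 3068 and 2580 at 5 months, and 2337, 2486 and 2795 at 10 months. Its pooled SD within harvests, 0.147 on the log2 scale, was the second smallest of the 100. The log2 fold change at 5 against 2 months was 3.67 ± 0.22 (SE, edgeR, adjusted p = 4.0e-06).

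The falls to 5 months were smaller. ID 923714 had 3691, 4360 and 5732 CPM at 2 months, 2176, 1894 and 2504 at 5 months, and 2384, 3559 and 3558 at 10 months. The 5-month libraries lay below all 2-month ones, and so did the 10-month libraries, of which replicate 1 was within the 5-month range. The fitted log2 fold change at 5 against 2 months was -1.07 ± 0.26 (SE, edgeR, adjusted p = 0.0122), and the call was lost without 5-month replicate 2 (adjusted p = 0.0581). ID 993242 had 1127, 1282 and 1305 CPM at 2 months and 795, 677 and 877 CPM at 5 months. On the log2 scale the change of -0.66 ± 0.20 (SE, edgeR, adjusted p = 0.0338) was not called under 8 of 21 alternatives, among them library totals as the only scaling (-0.52, adjusted p = 0.280). Leaving out 2-month replicate 2 or 3, 5-month replicate 1 or 2, or 10-month replicate 3 also ended that call, with adjusted p of 0.0580 to 0.131.

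**Figure D5:**
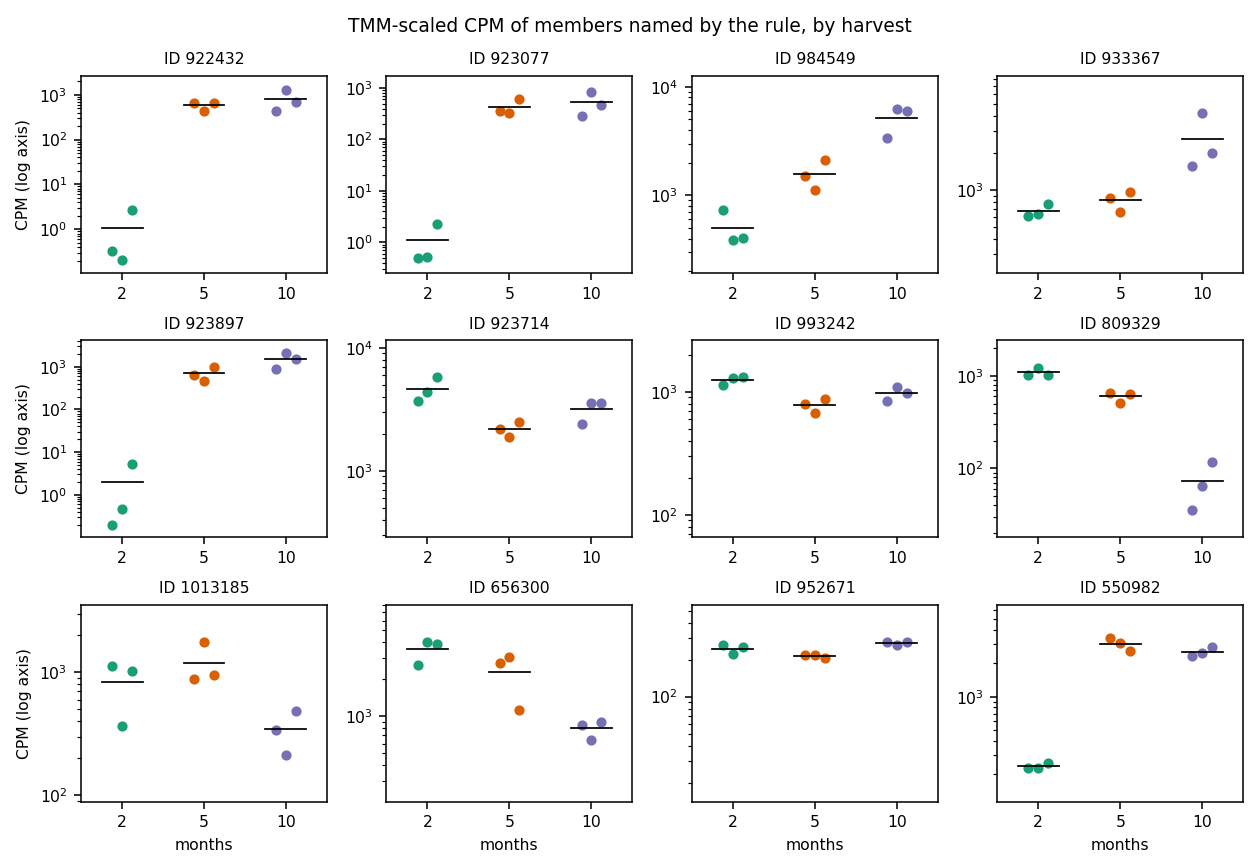
CPM scaled by TMM (log axis) of 12 of the 100 genes by harvest, with 3 points for the libraries of a harvest and a line at their mean. IDs 922432, 923077 and 923897 sit below 10 CPM at 2 months and above 200 CPM afterwards, ID 809329 ends at 36 to 117 CPM, and ID 952671 stays between 208 and 279 CPM.

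Between 5 and 10 months 24 of the 100 genes were called, 20 higher and 4 lower at 10 months, where 18.1% of all tested genes were called, 9.94% higher and 8.19% lower. Among the next 900 genes 23.9% were called, 18.4% higher and 5.47% lower, so the lean toward rises was shared by the next most abundant genes. The 20 rises were moderate, with a median log2 fold change of 1.24, and the largest was that of ID 960508 given above. The median over all 100 genes was 0.33, against -0.03 for all tested genes and 0.27 for the next 900. Libraries of both harvests did not overlap in 40 of the 100, where 41.8% of all tested genes were so separated. The split of directions depended on the scaling. With library totals alone, all tested genes had a median of -0.57, and 7 members were called higher and 10 lower. Relative to the median of all genes, that of the 100 lay 0.36 higher with TMM and 0.33 higher with library totals. The count dropped to 13 when 10-month replicate 2 was left out, to 12 for 5-month replicate 1, to 11 for 5-month replicate 2, and to 7 for the 3 libraries rich in the co-varying genes, which left a single 10-month library assumed to vary like the others.

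ID 984549 rose in both steps. It had 726, 385 and 403 CPM at 2 months, 1509, 1114 and 2138 at 5 months, and 3340, 6273 and 5967 at 10 months, so no harvest overlapped another. Its log2 fold change was 1.65 ± 0.35 (SE) at 5 against 2 months (edgeR, adjusted p = 0.0059) and 1.71 ± 0.35 (SE) at 10 against 5 months (adjusted p = 0.0053). Both calls were kept under the 21 alternatives run. ID 933367 had 617, 637 and 772 CPM at 2 months, 856, 668 and 970 at 5 months, and 1565, 4222 and 2010 at 10 months. The first 2 harvests overlapped and the last lay above them. The fitted log2 fold change at 10 against 5 months was 1.64 ± 0.33 (SE, edgeR, adjusted p = 0.0052), and 1.08 without 10-month replicate 2, the highest library.

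ID 809329 was the member that fell most. Its CPM was 1029, 1203 and 1024 at 2 months, 648, 508 and 637 at 5 months, and 36, 65.2 and 117 at 10 months. Each harvest lay wholly below the one before, and by RPKM the gene went from rank 17 to 24 at 2 months to rank 508 to 1582 at 10 months. On the log2 scale the change was -3.04 ± 0.36 (SE) at 10 against 5 months (edgeR, adjusted p = 0.000181) and -3.90 ± 0.37 (SE) at 10 against 2 months (adjusted p = 1.3e-05). These calls too were kept under the 21 alternatives run. ID 1013185 had 1128, 365 and 1018 CPM at 2 months, 880, 1775 and 947 at 5 months, and 338, 213 and 489 at 10 months. Its 10-month libraries lay below all 5-month ones but overlapped with 2-month replicate 2. The log2 fold change at 10 against 5 months was -1.79 ± 0.45 (SE, edgeR, adjusted p = 0.0195). That call was lost without 5-month replicate 2, 10-month replicate 1 or 10-month replicate 2, with adjusted p of 0.0634 to 0.0735, and without the 3 rich libraries (0.154).

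Over the whole period, from 2 to 10 months, 42 of the 100 genes were called, where 33.1% of all tested genes were. They were 34 higher and 8 lower at 10 months, against 17.5% and 15.6% of all tested genes and, in the next 900, 26.5% and 11.3% of a total of 37.7%. The rises had a median log2 fold change of 1.68. Of the 100 genes, 30 were called and at least 2-fold higher, where 11.2% of all tested genes were. Called and at least 2-fold lower were 4 of the 100, a smaller share than the 8.22% of all tested genes. Over all 100 genes the median log2 fold change was 0.44, against -0.03 for all genes tested. Libraries of both harvests did not overlap in 54 of the 100, where 45.9% of all tested genes were so separated. With library totals alone the median log2 fold change was 0.03 for the 100 and -0.43 for all tested genes. There, 25 members were called higher and 15 lower. Relative to the median of all genes, that of the 100 lay 0.46 higher with TMM and with library totals. The 8 falls became 2 when 2-month replicate 3 was left out and 4 for 2-month replicate 2. They became 5 when 10-month replicate 2 or 3 or 5-month replicate 1 was left out, with replicate number as a block, and in a fit of the compared harvests alone. Without the 3 rich libraries 26 members were called, 23 higher and 3 lower.

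Of the 10 highest genes, 3 were called over the whole period. ID 127396 had 5224, 6032 and 8579 CPM at 2 months, 8808, 7368 and 10521 at 5 months, and 12475, 26275 and 19362 at 10 months. Its 10-month libraries lay above all others. The log2 fold change at 10 against 2 months was 1.55 ± 0.33 (SE, edgeR, adjusted p = 0.0031). ID 807519 had 1010, 1022 and 1464 CPM at 2 months, 1315, 1113 and 1272 at 5 months, and 2250, 2245 and 2990 at 10 months. Here the first 2 harvests overlapped, and the last stood above both. Its log2 fold change at 10 against 2 months was 1.10 ± 0.23 (SE, edgeR, adjusted p = 0.0030), and 0.72 with library totals as the only scaling, where the call was lost (adjusted p = 0.0718). ID 656300 fell. It had 2624, 4043 and 3882 CPM at 2 months, 2715, 3045 and 1124 at 5 months, and 846, 647 and 905 at 10 months. Every 10-month library lay below all earlier ones, while those of 2 and 5 months overlapped. The fitted log2 fold change at 10 against 2 months was -2.14 ± 0.35 (SE, edgeR, adjusted p = 0.000626), and -1.85 without the 3 rich libraries, where the call was lost (adjusted p = 0.0914).

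In 52 of the 100 genes no difference among harvests was called, which does not show that they were constant. Leaving aside the co-varying genes, 47 of these had a median ratio of 1.35 between their highest and lowest harvest mean. Over all 9 libraries 30 of the 100 genes varied by less than 2-fold in CPM, where 29.2% of all tested genes and 39.4% of the next 900 did. There were 20 that varied by more than 10-fold, where 11.4% of all tested genes did. ID 952671 was the steadiest. It had 262, 222 and 254 CPM at 2 months, 217, 216 and 208 at 5 months, and 279, 264 and 279 at 10 months, a range of 1.34-fold. Its pooled SD within harvests was 0.080 on the log2 scale, and its adjusted p over the harvests was 0.187 by edgeR's F test. ID 849817 had a pooled SD of 0.150, with 2219 to 2724 CPM at 2 months, 1590 to 2051 at 5 months and 2441 to 2758 at 10 months. Among the 10 highest, ID 920643 stood at 5634 ± 1342, 5520 ± 1521 and 5277 ± 772 CPM (SD, n = 3 each) at 2, 5 and 10 months, with an adjusted p of 0.954 by edgeR's F test. Over the 100 genes the pooled SD had a median of 0.35, or 0.33 without the 6 co-varying genes, against 0.25 for all genes tested and 0.27 for the next 900. It was above 0.5 in 24 of the 100, where 6.88% of all tested genes were.

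The 100 genes were short. Their implied transcript length had a median of 680 bases and ran from 162 to 3111, against a median of 1011 for all genes with reads and 814.5 for the next 900. Of the 100, 28 were under 500 bases, where 16.3% of all genes with reads were, and 2 were over 2000 bases. Length is the divisor of RPKM and so entered the choice. Ranking by CPM of unique reads, with no division by length, kept 70 of the 100. Shared reads were a small part of the total in most members. There were 29 with no shared read and 9 with more than 1% shared, where 22.6% of all genes with reads had more than 1%. The median percentage shared was 0.0002% in the 100, against 0% for all genes with reads and for the next 900. Ranking by RPKM of unique reads alone kept 96 of the 100 and lost ID 888384, which went from rank 30 to 368, ID 923077 from 35 to 186, ID 922432 from 54 to 122, and ID 917745 from 97 to 112.

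ID 888384 owed its place to shared reads, which were 84.2% of its total. Its RPKM on total reads was 3235, 3105 and 3597 at 2 months, 3575, 2524 and 1504 at 5 months, and 2059, 1034 and 2022 at 10 months. On unique reads it held between 93.6 and 218 CPM in 8 libraries but 4.05 CPM in 5-month replicate 3. In that library 99.1% of its 15173 reads were shared, against 80.1% to 86.2% in the others. The levels of this gene are therefore uncertain, and edgeR's F test gave an adjusted p of 0.639. Of the 9 members with more than 1% shared reads, 5 had their lowest shared percentage in the same library. ID 888384 itself had its highest there. The part of that library in these values was not tested.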

How the data were processed

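RNA of 9 libraries, 3 for each of 3 harvests, was sequenced by standard Illumina protocols, per the labels' protocols. The deposited tables list, per the file headers, counts of unique and of total gene reads and an RPKM for each of 29375 genes. Total reads divided by the deposited RPKM and the column sum gave a whole-number length within 0.01 bases for 25486 genes, so the authors' RPKM is scaled to total gene reads. The sources used here name no aligner, counter, genome build or annotation.

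The members and lists were chosen with earlier results of these data known. Genes were ranked by median RPKM, and differences were tested on unique reads with edgeR 4.0.16 in R 4.3.3 (TMM, filterByExpr, robust quasi-likelihood fits, 1 fit of all libraries with 6 residual degrees of freedom). P-values were Benjamini-Hochberg adjusted over all 20168 genes tested and called under 0.05. TMM factors ran from 0.596 to 1.19. The SE is the log2 fold change divided by the square root of F. CPM and pooled SDs used log2(CPM + 0.5) where logged. Depth set a floor of 3 reads at 0.0311 to 0.137 CPM, for counting error only. Replicates are biological, per the labels.

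Named members were the 10 of highest median RPKM, the 3 on either side of the limit, the 2 largest non-overlapping called rises and falls per comparison, the 3 of smallest and largest spread, the 3 with most shared reads, and those most like the first. Planned lists by product name could not be drawn up, since the deposited tables pair no ID with a product. After the main fit, the procedure was also run on data simulated from its mean levels and dispersions, with the outcome not given here. Alternatives were other scalings and filters, total reads, DESeq2 1.42.0, limma voom 3.58.1, only the compared harvests, replicate number as a block, each library left out, the 6 co-varying genes or 3 rich libraries left out, and other membership rules. Python 3.11.15, pandas 2.3.3, numpy 2.4.6 and matplotlib 3.10.9 were used.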

Additional observations from a re-analysis of the deposited data

How the results depend on the processing

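Of 118 recomputed values of the main comparisons, 106 stayed close to the reported one, within 1.5 times for a percentage of members called and within 1 SD for a share of reads. The split of directions at 10 against 5 months did turn, from 20 higher and 4 lower members to 7 higher and 10 lower with library totals. DESeq2 called 37% of members at 5 against 2 months in place of 21%, and 38% at 10 against 5 months in place of 24%. Without the 3 libraries rich in the co-varying genes, 7% were called at 10 against 5 months and 26% at 10 against 2 months in place of 42%. In the latter fit a single 10-month library was left, so fewer libraries and the loss of these libraries cannot be told apart, and the share over all genes fell to 3.85% and 10.7%. Leaving out each library in turn gave 37% to 47% called over the 3 harvests, 16% to 26% at 5 against 2 months, 11% to 30% at 10 against 5 months and 35% to 42% at 10 against 2 months. No sign of pairing by replicate number was seen, as deviations from the harvest means correlated at -0.30 to 0.15 between same-numbered libraries and over 0.1 in 1 of 9 pairs. With 3 libraries per harvest, such correlations cannot exclude a pairing. With replicate number as a block, 41%, 19%, 20% and 37% of members were called in the same order. For DESeq2, the left-out libraries and the block, no share over all genes is given here. These percentages therefore do not show a change particular to the members. The share of reads held by the members became 37.3%, 26.2% and 44.97% on summed RPKM at 2, 5 and 10 months, and 16.3%, 18.1% and 19.9% at 2, 5 and 10 months without the 6 co-varying genes. The median spread was 0.42 with library totals and 0.35 with a pseudocount of 5 CPM. No named member's called fold change turned its sign. Ranking by mean RPKM kept 92 of the 100 genes, and ranking by the median of harvest medians kept 95. Depth limits only the 2-month levels of the genes that appeared later, where as few as 6 reads were counted.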
